A study of Mus musculus with 11 samples.

Results

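Chemokine ligands are small secreted proteins that direct the migration of leukocytes, and 34 mouse genes for them were followed across the cell lineages of the aged lung. The members were chosen as named genes, and 33 of the 34 had a row among 31017 gene symbols in the deposited tables, and Cxcl11 was not analysed here. Whole lungs had been dissociated with enzymes, red cells lysed, and the cells captured as droplets for 3′ single-cell RNA sequencing in 11 libraries. The groups were 1 wild-type library (WT, +/+), 3 libraries of p21 heterozygotes (p21Het, +/-), 5 of p21mTert (+/mTert) and 2 of p21mTertCD (+/mTertCD), so that all groups but WT carried 1 altered copy of p21 (Cdkn1a), the gene of a cell cycle inhibitor. In the p21mTert and p21mTertCD groups the altered copy places an mTert sequence under p21, and what CD stands for is not given in the labels. Mice were 18 months old, except that the ages recorded for p21Het library 1 and p21mTert library 1 were 19 and 20 months. No treatment is given. By the form of their titles, library 1 of WT, of p21Het and of p21mTert make up a first set, and the other 8 libraries a later set. The labels do not say whether libraries of a group came from separate animals, so the p-values measure only the spread between these libraries.

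The RNA of most chemokine ligands was held by few lineages. Interstitial macrophages, the macrophages of the lung tissue outside the air spaces, had the highest level of Ccl2, Ccl7, Ccl8, Ccl12, Ccl24, Cxcl1 and Cxcl13. Basophils or mast cells were highest in Ccl3, Ccl4 and Ccl9, NK cells in Ccl5 and Xcl1, type 2 alveolar (AT2) cells in Cxcl15, lymphatic endothelium in Ccl21a and platelets or megakaryocytes in Pf4 and Ppbp. Between genotypes, Ccl5 had the smallest p of the members over all kept cells, at 719 ± 151 (SD, n = 3) CPM of all cells in p21Het against 2701 ± 663 (SD, n = 2) in p21mTertCD. Of 30 genotype comparisons 3 gave 1 member each past the threshold, beside 0.12%, 0.159% and 1.01% of the genes tested in them. Each of these 3 calls was lost in some of the fits that left out 1 library.

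Chemokines are grouped by the spacing of their first cysteines into CC, CXC, CX3C and XC families, and they act on G protein-coupled receptors on the responding cell. Some are made constantly and place cells within tissue, such as Cxcl12 and Ccl21a, whereas others are induced by inflammatory signals, such as Ccl2 for monocytes and Cxcl1 and Cxcl2 for neutrophils. In the lung they set which leukocytes enter the airspace, the interstitium and the lymphatic vessels.

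Libraries held 42038434 to 85988955 UMIs (unique molecular identifiers, 1 per captured RNA molecule). Of 81983 barcodes, 69267 had 1000 to 30000 UMIs and at most 14% mitochondrial UMIs and were kept, with a median of 4133 to 6454 UMIs per kept barcode in a library. A barcode was assigned to 1 of 26 lineages by marker genes that include no chemokine and no chemokine receptor, and 63463 barcodes were assigned. Levels are CPM, the UMIs of a gene scaled to a total of 1000000 UMIs for the lineage in a library, and they are not per transcript length because reads are counted at the 3′ end. Pairs of libraries shared 9 to 83 barcodes. The targeted gene was read from Tert, which was 0.544 to 0.842 CPM in the p21Het libraries, 2.00 to 3.28 in p21mTert, 1.90 to 2.59 in p21mTertCD and 1.13 in WT, so that both mTert groups lay above p21Het and WT. Cdkn1a ranged from 118 to 187 CPM over all 11 libraries, and whether its 3′ tag lies in the altered part is not given, so it checks no label. The p21mTertCD library 1 held 1.52% B cells, against 11.9% to 38.4% in the other libraries.

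The CXC ligands of neutrophils lie together on chromosome 5, and the stretches before the start sites of 4 of them are shown because neighbours differed in the lineage that held their RNA. The order along chr5:90759360-90905938 (GRCm38) is Cxcl5, Ppbp, Pf4, Cxcl3, Cxcl15, Cxcl1 and Cxcl2, all protein-coding on the plus strand within 146.6 kb. The sequences are RefSeq's promoter entries for GRCm38.p6, plus strand, from 150 to 31 bases before the start site, and capitals mark each match to the NF-kB motif, 3 G, any 2 bases, 3 T and 2 C, on either strand. Their positions are chr5:90785951-90786070 for Cxcl3, chr5:90794384-90794503 for Cxcl15, chr5:90891095-90891214 for Cxcl1 and chr5:90903749-90903868 for Cxcl2.
Cxcl3: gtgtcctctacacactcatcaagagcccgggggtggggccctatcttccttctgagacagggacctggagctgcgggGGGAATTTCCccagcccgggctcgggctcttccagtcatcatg
Cxcl15: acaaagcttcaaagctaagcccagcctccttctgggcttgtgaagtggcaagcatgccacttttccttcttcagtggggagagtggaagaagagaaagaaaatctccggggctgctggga
Cxcl1: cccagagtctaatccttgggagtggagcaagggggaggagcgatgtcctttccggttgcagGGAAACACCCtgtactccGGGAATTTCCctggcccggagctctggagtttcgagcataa
Cxcl2: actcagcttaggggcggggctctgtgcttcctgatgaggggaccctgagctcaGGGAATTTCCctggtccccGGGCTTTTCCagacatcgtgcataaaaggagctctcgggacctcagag

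The shown stretch of Cxcl3 held 1 match, Cxcl1 and Cxcl2 held 2 each, and Cxcl15 held none in these letters. Over the full entries of 300 bases, 24 members matched by symbol with 25 entries, and 5 of the 25 entries (20%) held the motif against 1.63% of 32851 promoters. The 5 belonged to Cxcl1, Cxcl2, Cxcl3, Ccl9 and Ccl20. A further 6 patterns were searched on both strands. A looser NF-kB pattern (3 G, any 5 bases, 2 C), which contains every match to the stricter motif, was in 44% of member entries against 50.8% of all. The interferon-response pattern (GAAA, any 2 bases, GAAA) was in 12% (Ccl19, Cxcl10 and Cxcl14) against 3.44%, the PU.1 pattern GAGGAAGT in 4% (Pf4) against 3.2%, the C/EBP pattern TTGCGCAA in 0% against 0.183%, the AP-1 pattern TGANTCA in 16% (Ppbp, Cxcl9, Cxcl10 and Ccl9) against 7.81%, and TATAAA in 40% against 13.6%.

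**Figure D1:**
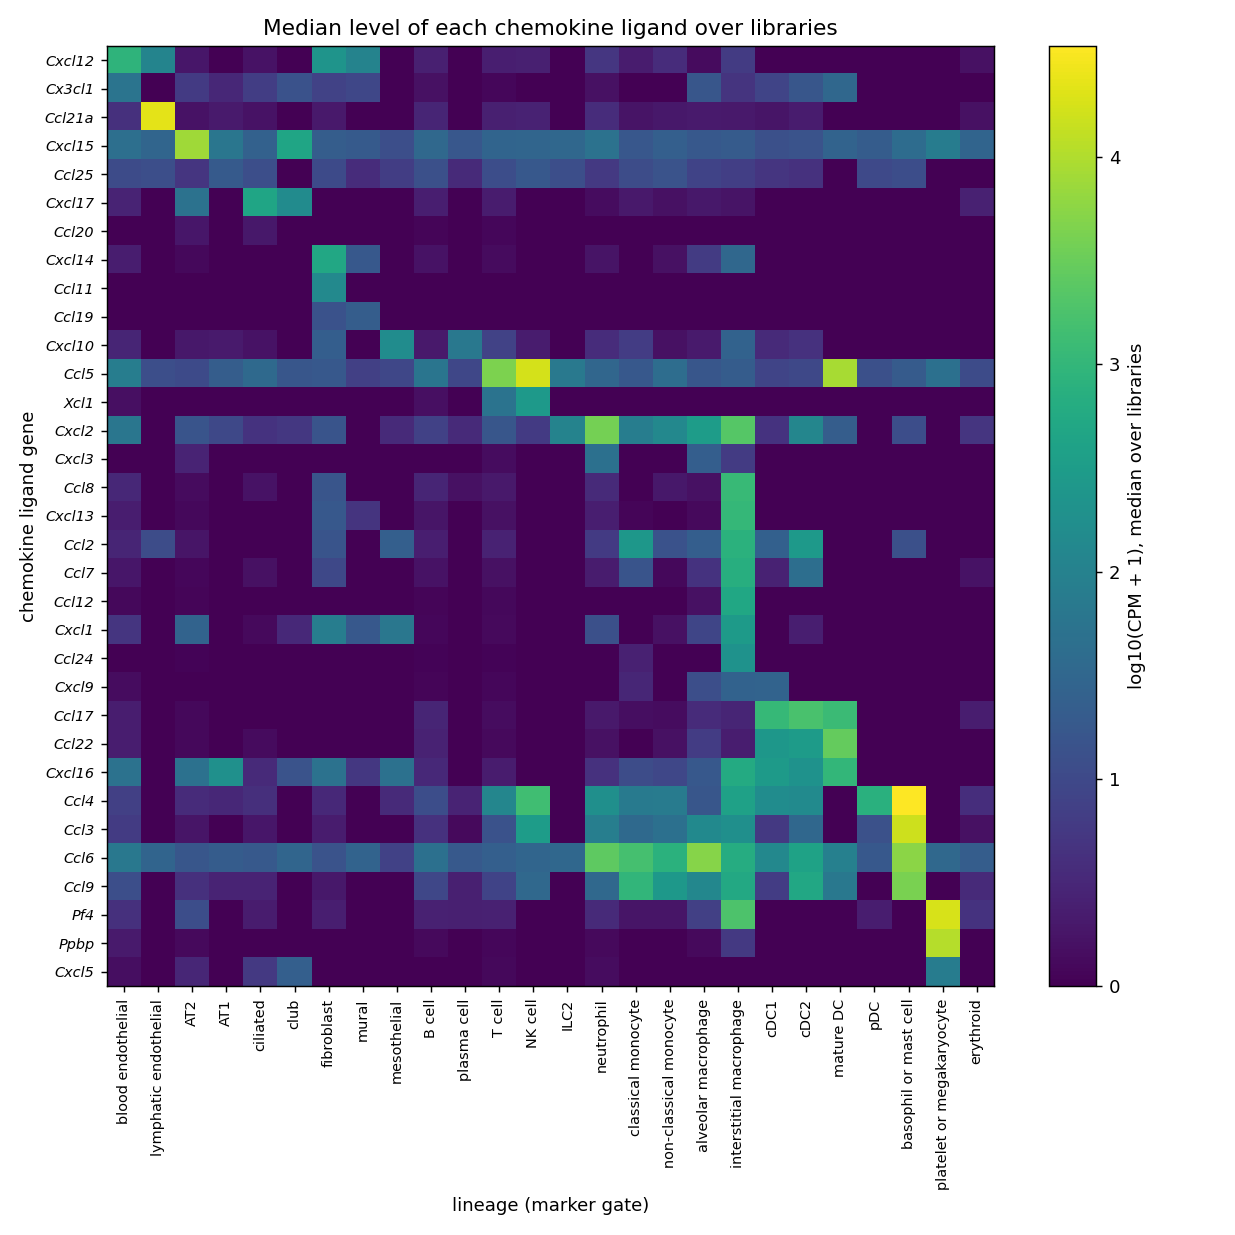
Median level of each of the 33 chemokine ligands (rows) in each of 26 marker-gated lineages (columns), as log10 of CPM plus 1, taken over the libraries with enough cells of that lineage. The brightest cell of a row is the lineage with the highest median, and Ccl2, Ccl7, Ccl8, Ccl12, Ccl24, Cxcl1 and Cxcl13 share the interstitial macrophage column.

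Ccl2, Ccl7, Ccl8 and Ccl12 were each highest in interstitial macrophages. They lie with the eosinophil ligand Ccl11 on chr11:82035571-82116799 (GRCm38), a span of 81.23 kb. Ccl2, a ligand of the monocyte receptor Ccr2, had a median of 775 CPM (range 445 to 1397, n = 11 libraries) in interstitial macrophages and a median of 285 in type 2 conventional dendritic cells (cDC2). The macrophage value was the higher in 11 of 11 libraries, and interstitial macrophages held 43.2% and classical monocytes 23.5% of its 25575 UMIs. Ccl7, another Ccr2 ligand, reached a median of 697 CPM (range 526 to 1429, n = 11 libraries), with 78.7% of 15413 UMIs there. For Ccl8 the same lineage had a median of 1132 CPM (range 251 to 2025, n = 11 libraries) and 90.4% of 21130 UMIs. Its low value came from the WT library, at 251, while the lowest of the other 10 libraries was 677. Ccl12 had a median of 510.0 CPM (range 218 to 725, n = 11 libraries) and 93% of 8256 UMIs, and its next lineage, alveolar macrophages, had a median of 0.621.

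The 2 eosinophil-directed members, both ligands of Ccr3, were held by different lineages. Ccl11 was highest in fibroblasts, with a median of 137 CPM (range 67.2 to 266, n = 11 libraries) and 87.5% of 1820 UMIs. Its level in adventitial fibroblasts, which surround vessels and airways, was a median of 464 CPM (range 278 to 643, n = 8 libraries), and in alveolar fibroblasts the median was 12.7. With lineages from clusters the alveolar class was the higher against all other gated cells (log2 fold change 10.17 against -9.49). The cluster named adventitial held only 83 assigned barcodes, against 307 adventitial by markers, so these classes hold different cells. Ccl24 was highest in interstitial macrophages, with a median of 204 CPM (range 26.0 to 350.2, n = 11 libraries), and 22.2% of its 3344 UMIs lay in barcodes with no assigned lineage. The lowest library was p21Het library 2, and the next lowest, at 48.0, was in p21mTertCD.

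A second run of CC genes on the same chromosome, chr11:83525778-83664683 (GRCm38, 138.9 kb), holds Ccl5, Ccl9, Ccl6, Ccl3 and Ccl4. Basophils or mast cells, granule-bearing cells of allergic responses, had the highest median of 4 of these 5. Ccl4, an attractant of monocytes and T cells, had a median of 34425 CPM (range 27573 to 48803, n = 10 libraries) in them and 1414 in NK cells, with 10 of 10 libraries higher in the former. Ccl3, a ligand of Ccr1, had a median of 15274 CPM (range 9297 to 23288, n = 10 libraries) against a median of 319 in NK cells. The 223 basophils or mast cells, of 69267 kept barcodes, held 45% of the 100192 Ccl4 UMIs and 44.3% of the 46166 Ccl3 UMIs. Ccl9, a Ccr1 ligand, had a median of 4184 CPM (range 2785 to 5200.4, n = 10 libraries), though classical monocytes, at a median of 959, held the largest share of its 69301 UMIs (36.6%). Ccl6, also a Ccr1 ligand, had a median of 5655 CPM (range 3281 to 8339, n = 10 libraries) in basophils or mast cells and a median of 5091 CPM (range 3319 to 9995, n = 11 libraries) in alveolar macrophages, the macrophages of the air spaces. The order of these lineages for Ccl6 held in only 6 of 10 libraries, so they do not differ beyond their spread, and alveolar macrophages held 54.5% of its 540775 UMIs.

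Ccl5, an attractant of T cells and monocytes, was the member with the most UMIs, 756883. NK cells had a median of 17736 CPM (range 13460.5 to 26747, n = 11 libraries) and T cells a median of 4420.1 CPM (range 2867 to 10196, n = 11 libraries), and T cells, with 13616 barcodes against 1204 NK cells, held 76% of the UMIs and NK cells 14.7%. Among T cells, those with Cd8a or Cd8b1 RNA had a median of 7502 and those with Cd4 RNA 1095. Mature dendritic cells had a median of 8683 CPM (range 554 to 23115, n = 11 libraries), a spread wider than that of NK cells. They were only 177 barcodes, with 5 to 54 in a library, and the part of these low numbers in the spread was not tested. The lowest Ccl5 median of any lineage was 6.18, in mural cells, so that no lineage was without reads of this gene. Xcl1, the ligand of Xcr1 on cross-presenting dendritic cells, had a median of 276 CPM (range 122 to 553, n = 11 libraries) in NK cells and a median of 51.7 in T cells, with NK cells higher in 11 of 11 libraries.

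**Figure D2:**
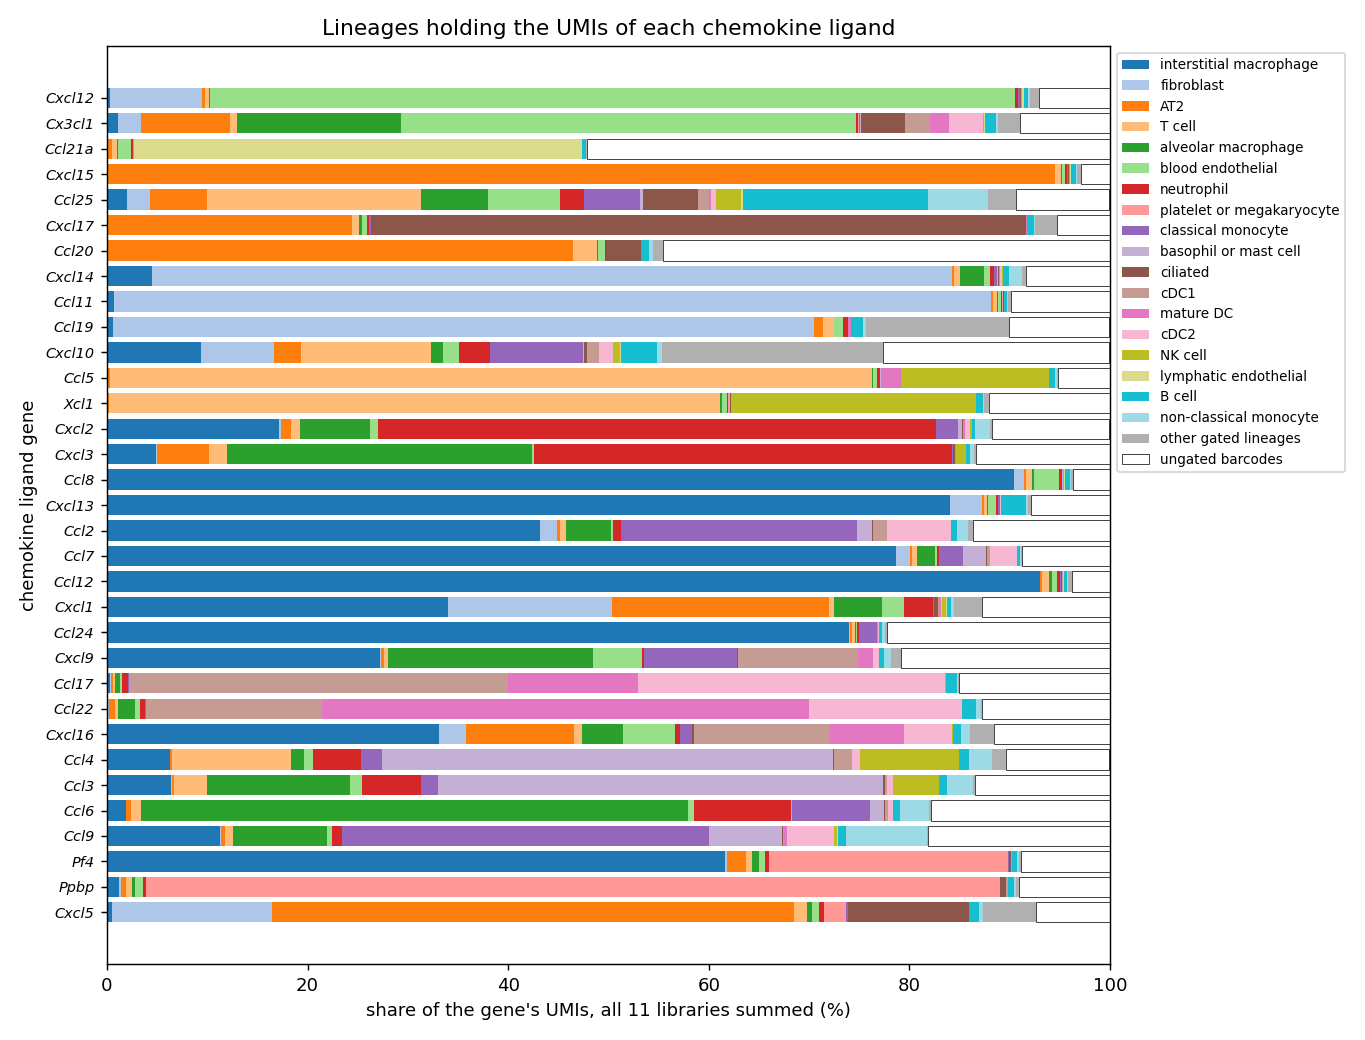
Share of the UMIs of each chemokine ligand (rows) held by each lineage, in percent of that gene's UMIs in all 11 libraries summed, with barcodes of no assigned lineage in white. Cxcl15 is held almost wholly by AT2 cells (94.4%) and Ccl12 by interstitial macrophages (93%), whereas Ccl25 and Cxcl10 are divided among many lineages.

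Cxcl1, Cxcl2 and Cxcl3, ligands of the neutrophil receptor Cxcr2 whose upstream sequences are shown above, did not share a highest lineage. Cxcl2 was highest in neutrophils themselves, with a median of 3936 CPM (range 2168 to 6717, n = 11 libraries), followed by interstitial macrophages with a median of 2197, and neutrophils were higher in 10 of 11 libraries. Neutrophils held 55.6% of its 164325 UMIs. Cxcl3 was likewise highest in neutrophils, with a median of 46.2 CPM (range 3.75 to 95.3, n = 11 libraries), and alveolar macrophages followed with a median of 21.7. Cxcl1 was highest in interstitial macrophages, with a median of 292 CPM (range 76.6 to 357, n = 11 libraries), and in fibroblasts its median was 83.4. That order held in 8 of 11 libraries. The p21Het libraries had 148, 107 and 94.1 in interstitial macrophages, and the p21mTert libraries 176, 292, 314, 351 and 357, without overlap, but the difference did not pass the genotype test (log2 fold change 1.43 ± 0.37 (SE), adjusted p = 0.938). Cxcl1 was examined there after its values were seen, and its lowest library, at 76.6, belonged to neither of these groups.

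Cxcl15, also called lungkine and known as a product of lung epithelium, had a median of 7891 CPM (range 5469.7 to 8616, n = 11 libraries) in AT2 cells, the surfactant-making cells. AT2 cells held 94.4% of its 489355 UMIs, and club cells, the secretory cells of the airway, had a median of 463. Every other lineage had a Cxcl15 median between 11.2, in mesothelial cells, and 79.0, in platelets or megakaryocytes, and whether RNA free in the suspension gives these low levels was not tested. Cxcl5 had only 1877 UMIs, with a median of 79.1 CPM (range 0 to 275, n = 10 libraries) in platelets or megakaryocytes and a median of 22.4 in club cells, and the first exceeded the second in 5 of 7 libraries. AT2 cells held 52.1% of the Cxcl5 UMIs at a median of 2.03, their highest library standing at 68.6.

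Pf4 and Ppbp, stored in platelet granules, were highest in the 226 platelets or megakaryocytes. Ppbp had a median of 10740.1 CPM (range 7517 to 18517, n = 10 libraries) in them and a median of 4.74 in the next lineage, interstitial macrophages. Pf4 had a median of 18067 CPM (range 10915 to 21609, n = 10 libraries), and interstitial macrophages had a median of 1834 CPM (range 611 to 3244, n = 11 libraries). The larger share of the 39178 Pf4 UMIs, 61.6%, lay in interstitial macrophages. Of the 7642 Ppbp UMIs these macrophages held 1.2%.

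Ccl22, a Ccr4 ligand, was highest in mature dendritic cells, with a median of 2898 CPM (range 1224 to 6808, n = 11 libraries), and its median was 310.5 in cDC2. Ccl17, the other Ccr4 ligand, had a median of 1737 CPM (range 899.9 to 2723, n = 11 libraries) in cDC2, a median of 1254 CPM (range 530.1 to 4038, n = 11 libraries) in mature dendritic cells and a median of 1093 in type 1 conventional dendritic cells (cDC1). The first place of cDC2 held in only 7 of 11 libraries, and it passed to mature dendritic cells when lineages were taken from clusters or when the first set was left out. These genes and Cx3cl1 lie within 66.45 kb at chr8:94745590-94812036 (GRCm38) and had 3 different highest lineages.

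Ccl21a, a Ccr7 ligand that draws dendritic cells into lymphatic vessels, had a median of 22718 CPM (range 18668 to 38316, n = 11 libraries) in lymphatic endothelium. Only 168 barcodes took that lineage, and 52.2% of the 49303 Ccl21a UMIs lay in barcodes with no lineage. The lymphatic barcodes had a median of 6 of 10 blood endothelial markers detected beside 9 of 10 of their own, and barcodes in which the lists came closer took neither lineage. Ccl19, the other Ccr7 ligand, had 349 UMIs in all, with a median of 21.1 CPM (range 3.89 to 37.1, n = 7 libraries) in mural cells, which wrap vessels, and a median of 12.9 CPM (range 3.63 to 40.4, n = 11 libraries) in fibroblasts, and those lineages do not differ beyond their spread (4 of 7 libraries). Both genes also have a second annotated copy on a separate scaffold, and rows of the same symbol were summed, so that each level holds both copies. Of the close paralogs of Ccl21a, Ccl21b had 0 UMIs and Ccl21c 13 over all kept cells. Whether reads that match several copies were counted is not given. Cxcl13, the B cell attractant acting on Cxcr5, had a median of 1053 CPM (range 518 to 2899, n = 11 libraries) in interstitial macrophages, and 84% of its 21813 UMIs were there. Ccl20, the Ccr6 ligand, had 1582 UMIs and medians of at most 0.943 in any lineage, but 62.8 in AT2 cells of 1 library, and its highest lineage changed with the setting. Of the Ccl20 UMIs, 44.6% lay in barcodes with no lineage. With lineages from clusters its highest median was 5.15, in club cells. Ccl25, the Ccr9 ligand, had a median of 18.5 CPM (range 0 to 25.5, n = 6 libraries) in AT1 cells, the flat gas-exchange cells, and a median of 17.0 in NK cells. That order held in only 4 of 6 libraries, and with the stricter gate NK cells ranked first. AT1 cells held 0.688% of the 4648 Ccl25 UMIs, T cells 21.3% and B cells 18.4%.

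The interferon-inducible ligands of Cxcr3 were low and uneven. Cxcl9 had a median of 26.5 CPM (range 0 to 212, n = 11 libraries) in cDC1 and a median of 25.3 CPM (range 0 to 258, n = 11 libraries) in interstitial macrophages, and under each of the 4 alternative settings the macrophages ranked first. Cxcl10 had a median of 159 CPM (range 33.8 to 209.8, n = 7 libraries) in mesothelial cells, the lining of the lung surface, and a median of 63.5 CPM (range 3.47 to 325, n = 9 libraries) in plasma cells, an order that held in 4 of 6 libraries. With doublets left out, the highest Cxcl10 median was 67.5. Of its 5364 UMIs, 22.6% lay in barcodes with no lineage.

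Cxcl12, which retains cells through Cxcr4, had a median of 897 CPM (range 772 to 1363, n = 11 libraries) in blood endothelium, which held 80.3% of 34614 UMIs. In general capillary cells (gCap) its median was 1246 and in aerocytes (aCap), the capillary cells of gas exchange, 13.4. Cx3cl1, a membrane-bound ligand of Cx3cr1, had the reverse order, with a median of 116 in aCap and 42.4 in gCap. Its level over blood endothelium had a median of 54.0 CPM (range 40.8 to 95.7, n = 11 libraries). Cxcl14 had a median of 535 CPM (range 414 to 710.3, n = 11 libraries) in fibroblasts, with 79.7% of 8967 UMIs, and its median was 598 in alveolar and 259 in adventitial fibroblasts. Cxcl16, a membrane-bound ligand of Cxcr6, had a median of 1013 CPM (range 778 to 1201, n = 11 libraries) in mature dendritic cells and a median of 598 in interstitial macrophages, which held 33.1% of its 27097 UMIs. Cxcl17, a mucosal chemokine, had a median of 461 CPM (range 261 to 815, n = 11 libraries) in ciliated cells and a median of 153 in club cells.

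Each lineage was then compared with all other assigned cells of the same libraries, to ask which ligands set it apart. A gene was called higher at an adjusted p under 0.05 with a log2 fold change above 1 in edgeR's quasi-likelihood test, with the library as a block, and values are log2 fold changes ± SE. Of 33 members tested, 15 were called higher in interstitial macrophages, where 8.78% of all genes tested were. The largest were 10.15 ± 0.33 for Ccl12, 9.48 ± 0.28 for Ccl24 and 9.44 ± 0.33 for Ccl8 (adjusted p at most 9.55e-15), each higher in 11 of 11 libraries. The others were Cxcl13, Ccl7, Pf4, Ccl2, Cxcl1, Cxcl16, Cxcl9, Cxcl2, Ccl9, Cxcl10, Ccl3 and Ccl4. The median log2 fold change of the 33 members was 0.82 there, beside -0.27 for all genes, and it was negative in each of the other 31 comparisons.

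**Figure D3:**
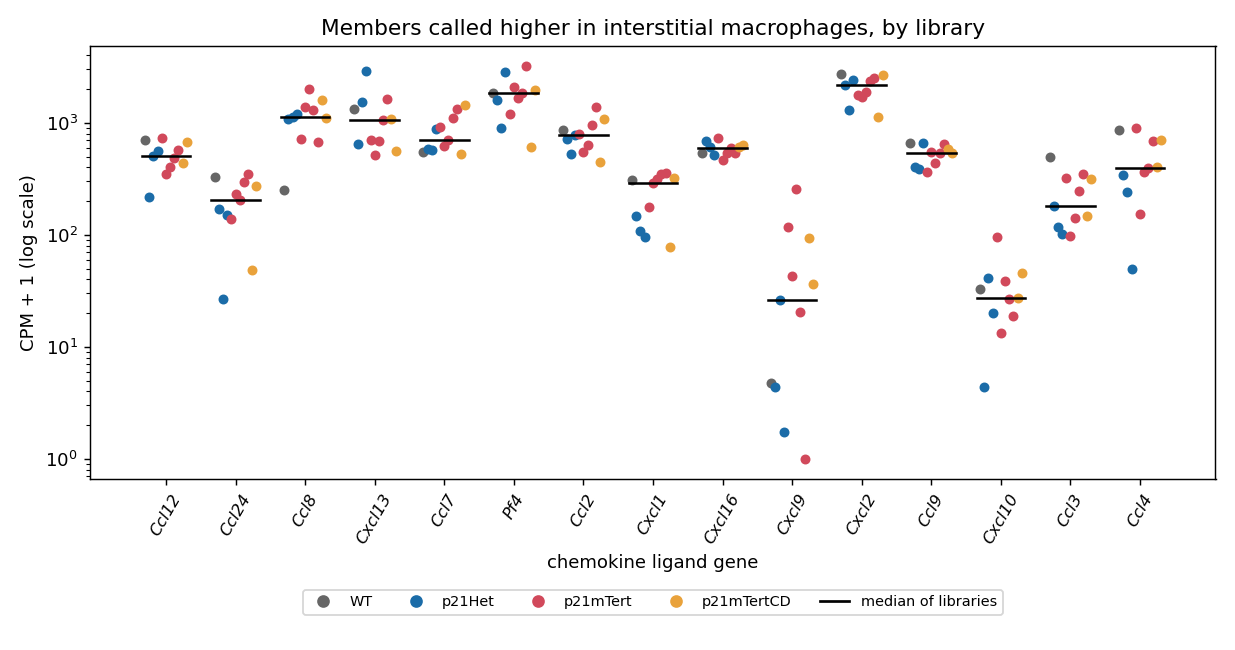
Levels of the 15 members called higher in interstitial macrophages, as CPM plus 1 on a log axis, with 1 point per library coloured by genotype group and a bar at the median of libraries. Cxcl16 lies between 463 and 729 in every library, and Cxcl9 runs from 0 to 258.

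Other myeloid lineages shared fewer members. In alveolar macrophages 4 members were called, where 13.5% of genes were, with 4.14 ± 0.23 for Ccl6, 2.59 ± 0.41 for Cxcl3 and 2.17 ± 0.48 for Cxcl9 (adjusted p at most 0.000632) and Cx3cl1. In classical monocytes, with 8.41% of genes called, the 4 members were 4.01 ± 0.10 for Ccl9, 3.03 ± 0.27 for Ccl2 and 1.27 ± 0.21 for Ccl6 (adjusted p at most 1.58e-05) and Cxcl10. Non-classical monocytes had 1, Ccl9 (1.58 ± 0.15, adjusted p = 4.12e-08), beside 9.19% of genes. Neutrophils had 5, beside 19.1% of genes, with 6.02 ± 0.16 for Cxcl2, 5.12 ± 0.42 for Cxcl3 and 2.72 ± 0.20 for Ccl6 (adjusted p at most 1.14e-10), and also Ccl3 and Ccl4, which were higher in 6 of 11 libraries. Basophils or mast cells had 5, beside 6.05%, with 8.59 ± 0.16 for Ccl4, 8.52 ± 0.24 for Ccl3 and 5.26 ± 0.17 for Ccl9 (adjusted p at most 1.43e-26), Ccl6, and Ccl2, which was higher in 3 of 10 libraries. Platelets or megakaryocytes had 3, beside 6.03%, at 13.71 ± 0.40 for Ppbp, 8.17 ± 0.31 for Pf4 and 5.26 ± 0.35 for Cxcl5 (adjusted p at most 1.94e-36).

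The Ccr4 ligands Ccl17 and Ccl22 were both called in cDC1, cDC2 and mature dendritic cells. The cDC1 had 4 members called beside 8.79% of genes, at 5.31 ± 0.33 for Ccl17, 4.03 ± 0.45 for Ccl22 and 3.33 ± 0.43 for Cxcl9 (adjusted p at most 3.42e-07), and Cxcl16. In cDC2 there were 7 beside 6.64%, at 5.89 ± 0.23 for Ccl17, 4.28 ± 0.17 for Ccl22 and 2.60 ± 0.29 for Ccl2 (adjusted p at most 1.78e-08), then Ccl9, Cxcl16, Cx3cl1 and Ccl7. Mature dendritic cells had 6 beside 7.55%, at 8.04 ± 0.25 for Ccl22, 5.05 ± 0.22 for Ccl17 and 4.56 ± 0.15 for Cxcl16 (adjusted p at most 3.74e-21), then Cx3cl1, Ccl5 and Cxcl9, the last higher in 4 of 11 libraries. Plasmacytoid dendritic cells (pDC) had 1, Ccl4 at 1.72 ± 0.18 (adjusted p = 2.74e-12), beside 6.42% of genes.

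Among lymphocytes, NK cells had 4 members called beside 5.98% of genes, at 4.77 ± 0.16 for Xcl1, 3.96 ± 0.17 for Ccl5 and 3.24 ± 0.21 for Ccl4 (adjusted p at most 6.19e-13), and Ccl3. T cells had 2 beside 13.6%, 4.05 ± 0.16 for Ccl5 and 3.50 ± 0.13 for Xcl1 (adjusted p at most 5.52e-12). CD8 T cells had the same members (11.3% of genes called), at 4.18 ± 0.12 for Ccl5 and 2.74 ± 0.13 for Xcl1 (adjusted p at most 7.91e-12), and CD4 T cells had Xcl1 alone (7.78% of genes called), at 1.02 ± 0.24 (adjusted p = 0.00132). No member was called in B cells (13.1% of genes), ILC2 (4.19%) or erythroid cells (4.98%). With no threshold on the fold, 33, 28 and 14 members had an unadjusted p under 0.05 in either direction in edgeR's test of those lineages, beside 14028 of 16247, 7665 of 15743 and 5567 of 15638 genes. Plasma cells had Cxcl10 (4.47 ± 0.36, adjusted p = 3.07e-10), beside 9.39% of genes.

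In the epithelium, AT2 cells had 5 members called beside 18.1% of genes, at 8.39 ± 0.14 for Cxcl15, 4.48 ± 0.53 for Ccl20 and 3.21 ± 0.45 for Cxcl5 (adjusted p at most 5.57e-06), and Cxcl1 and Cxcl17. Ciliated cells had 2 beside 22.4%, 5.42 ± 0.17 for Cxcl17 and 1.59 ± 0.58 for Cxcl5 (adjusted p at most 0.0186). The ciliated Cxcl5 value was higher in only 6 of 11 libraries, and its call was lost with doublets left out, at 0.99 (adjusted p = 0.149). Club cells had 4 beside 7.17%, at 4.84 ± 0.32 for Cxcl5, 3.28 ± 0.21 for Cxcl17 and 2.68 ± 0.62 for Ccl20 (adjusted p at most 0.00011), and Cx3cl1, with Ccl20 higher in 2 of 8 libraries. With lineages from clusters the Ccl20 value became 7.40 in club cells and 2.35 in AT2 cells. AT1 cells had Cxcl16 (1.78 ± 0.15, adjusted p = 4.92e-19), beside 10.3% of genes. These epithelial lineages had no called CC member other than Ccl20.

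In vessels and stroma, blood endothelium had 2 members beside 16.2% of genes, 6.54 ± 0.16 for Cxcl12 and 3.69 ± 0.11 for Cx3cl1 (adjusted p at most 2.03e-14). The gCap cells had both (14.6% of genes called), at 5.30 ± 0.13 for Cxcl12 and 2.62 ± 0.11 for Cx3cl1 (adjusted p at most 1.92e-14), and aCap had Cx3cl1 (3.98 ± 0.11, adjusted p = 7.85e-19), with 11.6% of genes. Lymphatic endothelium had Ccl21a (12.47 ± 0.22, adjusted p = 1.56e-73), with 8.86% of genes. Fibroblasts had 6 beside 17.7%, at 10.10 ± 0.24 for Ccl11, 7.75 ± 0.18 for Cxcl14 and 6.41 ± 0.33 for Ccl19 (adjusted p at most 5.15e-13), and Cxcl1, Cxcl12 and Cxcl10.

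Within the stroma, alveolar fibroblasts had those 6 members too (17.1% of genes called), led by 7.08 ± 0.15 for Cxcl14, 5.70 ± 0.32 for Ccl19 and 2.10 ± 0.33 for Ccl11 (adjusted p at most 3.97e-06). Adventitial fibroblasts had 5 (13.9% of genes called), led by 8.93 ± 0.25 for Ccl11, 3.85 ± 0.67 for Ccl19 and 3.80 ± 0.31 for Cxcl1 (adjusted p at most 2.59e-05), then Cxcl14 and Cxcl12. Under lineages from clusters the adventitial Ccl11 value turned to -9.49 and the alveolar one became 10.17. The cluster named adventitial held 83 assigned barcodes and the one named alveolar 1417, whereas 307 fibroblasts were adventitial by markers. Most adventitial fibroblasts by markers thus lay outside the cluster of that name, and the values do not compare the same cells. The part of this in the Ccl11 values was not tested. With lineages from clusters adventitial Cxcl1 lost its call, at 0.96 (adjusted p = 0.0518). Mural cells had Ccl19 (4.98 ± 0.46, adjusted p = 2.21e-18), beside 12% of genes, and mesothelial cells had 4.05 ± 0.19 for Cxcl10 and 1.07 ± 0.29 for Cxcl1 (adjusted p at most 0.0031), beside 12.9%. The mesothelial Cxcl1 value fell under the fold threshold with doublets left out (0.86), with the stricter gate (0.89) and in the later set alone (0.86).

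The genotype comparisons asked whether mTert under p21, and its CD form, went with another level of these ligands, in all kept cells and in 9 lineages. The 3 contrasts were taken from 1 fit without WT and they share groups, so their calls are not independent. Of all kept cells, 33 members were tested, and 0, 0 and 1 were called when p21mTert was set against p21Het, then p21mTert against p21mTertCD, and last p21mTertCD against p21Het, beside 0.0114%, 0.00571% and 0.12% of 17500 genes. The median member log2 fold change was -0.0027, -0.32 and 0.26, and that of all genes 0.015, 0.019 and -0.031. In bulk sums of this kind, fewer cells of a type and less RNA per cell cannot be told apart.

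Ccl5 was the member of smallest p in each of the 3 contrasts over all kept cells. The p21Het libraries had 718, 568 and 869.7 CPM, the p21mTert libraries 1213, 1704, 1076, 1101 and 1508, the p21mTertCD libraries 3169 and 2232 and WT 1180.2. All p21mTert values lay above all p21Het values and below both p21mTertCD values, and WT lay within the p21mTert range. Ccl5 rose in p21mTertCD over p21Het (log2 fold change 1.94 ± 0.28 (SE), adjusted p = 0.0447). The call was lost in 8 of 10 fits that left out 1 library, the exceptions being those without p21Het library 3 or p21mTertCD library 2, and the adjusted p ran up to 0.288 and the log2 fold change from 1.61 to 2.25. It was lost with RLE size factors (adjusted p = 0.0505), in the later set alone (adjusted p = 0.228) and with a term for the set (adjusted p = 0.0952). For p21mTert minus p21Het the value was 0.83 ± 0.23 (SE), adjusted p = 0.672, and for p21mTert minus p21mTertCD -1.11 ± 0.25 (SE), adjusted p = 0.208. The last passed in DESeq2 (adjusted p = 0.00534).

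The share of T cells among kept barcodes was 12.6% to 15.7% in p21Het, 14.3% to 22.5% in p21mTert, 34.8% and 25.9% in p21mTertCD and 17.2% in WT. CD8 T cells were 4.76% to 5.78% in p21Het, 9.77%, 11.1%, 6.67%, 6.35% and 7.22% in p21mTert libraries 1 to 5, 15.4% and 15.5% in p21mTertCD and 7.87% in WT. The total T cell shares of p21Het and p21mTert overlapped, whereas the CD8 T cell shares of the 3 groups did not overlap and stood in the same group order as the Ccl5 levels of all kept cells. The part of these shares in the Ccl5 level was not tested.

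Within T cells the p21Het libraries had 3527, 2867 and 3868 CPM of Ccl5, the p21mTert libraries 4420.1, 7451, 4313, 4139 and 8126 and the p21mTertCD libraries 10196 and 7407. No p21Het library reached the lowest p21mTert library, whereas p21mTert and p21mTertCD overlapped. The difference of p21mTertCD from p21Het in T cells was 1.42 ± 0.30 (SE), adjusted p = 0.0886, that of p21mTert from p21Het 0.75 ± 0.25 (SE), adjusted p = 0.957 and that of p21mTert from p21mTertCD -0.68 ± 0.27 (SE), adjusted p = 0.358, so none passed the threshold in edgeR's test. The first of these did pass when genes of low counts were kept (adjusted p = 0.0171) and without p21mTertCD library 2 (adjusted p = 0.0174). In CD8 T cells, looked at after these values were seen, p21Het had 5714, 5399.6 and 5776, p21mTert 6389.8, 10520.2, 7988, 6903 and 12095 and p21mTertCD 16503 and 9684, again with every p21Het value below the rest. Among NK cells, which had the highest level, p21Het had 13460.5, 21546 and 15917, p21mTert 14573, 14681, 20732, 17822 and 17736 and p21mTertCD 26747 and 18699.9, and these ranges overlapped. The NK differences were -0.014 ± 0.20 (SE), adjusted p = 1 for p21mTert minus p21Het and 0.55 ± 0.24 (SE), adjusted p = 0.773 for p21mTertCD minus p21Het. For p21mTert minus p21mTertCD Ccl5 was not called in NK cells by edgeR's test. It passed there when genes of low counts were kept (-0.51, adjusted p = 0.0151).

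**Figure D4:**
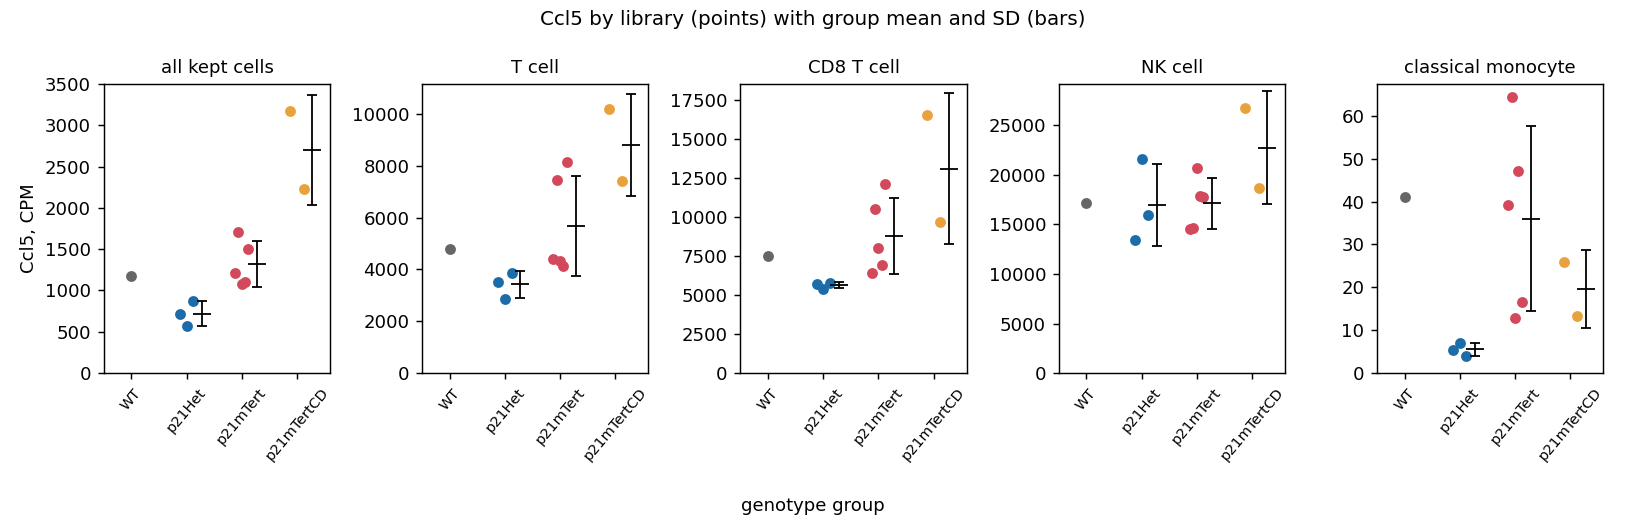
Ccl5 in CPM (y axes start at 0 and differ between panels) for all kept cells, T cells, CD8 T cells, NK cells and classical monocytes, with 1 point per library by genotype group and bars for the group mean and SD. The p21Het points lie below all p21mTert points in every panel but that of NK cells.

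In classical monocytes 13 members were tested, of which 1, 0 and 1 were called, beside 0.159%, 0.125% and 1.01% of genes in the contrasts as ordered above. The p21Het libraries had 5.35, 7.07 and 4.08 CPM of Ccl5, those of p21mTert 39.1, 64.5, 12.8, 47.1 and 16.7, those of p21mTertCD 26.0 and 13.2 and WT 41.0, so that p21Het lay below every other library. It rose in p21mTert over p21Het (log2 fold change 3.09 ± 0.48 (SE), adjusted p = 0.016), and the call was lost without p21mTert library 4 (adjusted p = 0.0573) and without p21Het library 3 (adjusted p = 0.185). With doublets left out the log2 fold change was lower, at 1.90. In the later set alone it was 3.19 (adjusted p = 0.0395). The median Ccl5 level over the lineages other than NK cells was 16.7. In AT2 cells the libraries of p21Het had 22.0, 9.56 and 2.15, those of p21mTert 109, 20.0, 5.76, 4.05 and 8.10 and those of p21mTertCD 78.2 and 9.43. The 10 T cell markers, all detected in the classical monocytes, summed to 3.93 to 18.5 CPM in p21Het, 5.84 to 25.1 in p21mTert, 14.3 to 18.5 in p21mTertCD and 36.7 in WT. Of the 10 NK cell markers 8 were detected, with Klra4 and Klra9 at 0, and they summed to 1.21 to 2.47, 1.67 to 5.91 and 1.47 to 4.09, and their part in the Ccl5 level was not tested.

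Cxcl9, induced by interferon gamma, was the other member called in classical monocytes. Its level was 0, 1.57 and 0 CPM among p21Het libraries, 4.02, 17.7, 4.27, 5.00 and 0 among those of p21mTert, 63.3 and 1.10 among those of p21mTertCD, with WT at 2.13. The p21mTertCD mean came from library 1, and the value of library 2 lay within the p21Het range. Because p21Het stands at or near 0, the fitted fold depends on the prior count and gives no bound. For the same reason Cxcl9 passed the low-count filter only through libraries of the other groups, where it was high. Its call is therefore not independent of how it came to be tested. The fitted log2 fold change of p21mTertCD over p21Het was 7.19 ± 1.56 (SE), adjusted p = 0.0392, and without p21mTertCD library 1 it was 2.14 (adjusted p = 1). The call was lost in 6 of 9 fits that left out 1 library and tested it, and it was kept without p21mTert library 1, p21mTert library 5 or p21mTertCD library 2. It was also lost in DESeq2 (adjusted p = 0.382), in the later set alone (adjusted p = 0.118) and with a term for the set (adjusted p = 0.061).

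No member passed the threshold in the other 8 lineages, in edgeR's test of the 3 contrasts in the order above. Blood endothelium had 19 members tested (0%, 0.0898% and 0.0449% of genes called), AT2 cells 20 (0.0604%, 0.0518% and 0%), fibroblasts 19 (0.0209%, 0% and 0%) and alveolar macrophages 20 (0.0288%, 0% and 0%). Interstitial macrophages had 23 tested (0%, 0.0223% and 0.0112%), neutrophils 16 (0%, 0.209% and 0.0279%), T cells 19 (0.0163%, 0.0326% and 0.0897%) and NK cells 9 (0%, 0% and 0%). At an unadjusted p under 0.05 the members numbered 63 over these 24 comparisons, of 435 member tests (14.5%), beside 5.9% of the tests of all genes. The contrasts share groups and the same members recur across lineages, so these tests are not independent and the shares were not tested against each other. DESeq2 called 1, Ccl5 in T cells for p21mTertCD minus p21Het (adjusted p = 0.000451). The share of genes that DESeq2 called is not given, so its count is not a result about the members.

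The 2 most abundant ligands of each lineage are given as levels in p21Het and p21mTert with the log2 fold change of p21mTert minus p21Het, and none of those below passed the threshold. Cxcl12 in blood endothelium was 990.1 ± 153 (SD, n = 3) CPM in p21Het against 907 ± 72.9 (SD, n = 5) in p21mTert (log2 fold change -0.10 ± 0.17 (SE), adjusted p = 1). Cxcl15 in AT2 cells was 7754 ± 1189 (SD, n = 3) and 7627 ± 962 (SD, n = 5) (-0.011 ± 0.11 (SE), adjusted p = 0.998). Cxcl14 in fibroblasts was 548 ± 26.1 (SD, n = 3) and 529 ± 93.7 (SD, n = 5) (-0.027 ± 0.18 (SE), adjusted p = 0.999). Ccl9 in classical monocytes was 913 ± 178 (SD, n = 3) and 952 ± 96.6 (SD, n = 5) (0.14 ± 0.13 (SE), adjusted p = 0.87), and Ccl6 there 1528 ± 317 (SD, n = 3) and 1457 ± 142 (SD, n = 5) (0.014 ± 0.12 (SE), adjusted p = 1). A p above the threshold does not show that these levels were equal.

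The other members of that list did not pass the threshold either. Ccl6 in alveolar macrophages was 7358 ± 2445 (SD, n = 3) in p21Het against 4992 ± 1378 (SD, n = 5) in p21mTert (-0.55 ± 0.27 (SE), adjusted p = 0.726), with p21Het library 2 highest at 9995. Cxcl2 was 212 ± 129 (SD, n = 3) and 366 ± 98.9 (SD, n = 5) in alveolar macrophages (0.84 ± 0.39 (SE), adjusted p = 0.726), 1966 ± 587 (SD, n = 3) and 2051 ± 374 (SD, n = 5) in interstitial macrophages (0.12 ± 0.24 (SE), adjusted p = 1) and 4589 ± 2023 (SD, n = 3) and 3813 ± 1238 (SD, n = 5) in neutrophils (-0.47 ± 0.33 (SE), adjusted p = 0.791). In interstitial macrophages Pf4 was 1787 ± 984 (SD, n = 3) and 2006 ± 767 (SD, n = 5) (0.23 ± 0.38 (SE), adjusted p = 1). Ccl6 in neutrophils was 2060.4 ± 758 (SD, n = 3) and 2469.6 ± 419 (SD, n = 5) (0.14 ± 0.16 (SE), adjusted p = 0.897), and in blood endothelium, where p21Het library 2 and p21mTert library 1 stood high, 107 ± 99.0 (SD, n = 3) and 100.0 ± 109.8 (SD, n = 5) (-0.36 ± 0.69 (SE), adjusted p = 1). Blood endothelium held 0.548% of the Ccl6 UMIs, at a mean of 103 CPM against 933 in all other assigned cells. Cxcl12 in fibroblasts was 327 ± 115 (SD, n = 3) and 206 ± 70.1 (SD, n = 5) (-0.71 ± 0.33 (SE), adjusted p = 0.876), and with no filter on low counts it passed the threshold on p at about the same log2 fold change (-0.71, adjusted p = 0.00898). Cxcl17 in AT2 cells was 79.5 ± 46.4 (SD, n = 3) and 41.2 ± 19.8 (SD, n = 5) (-1.02 ± 0.45 (SE), adjusted p = 0.886). Ccl4 was 76.1 ± 35.8 (SD, n = 3) and 136 ± 31.3 (SD, n = 5) in T cells (0.87 ± 0.33 (SE), adjusted p = 0.957) and 1607 ± 370.0 (SD, n = 3) and 1370.3 ± 406 (SD, n = 5) in NK cells (-0.24 ± 0.19 (SE), adjusted p = 1).

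The receptors that read these ligands were taken as a list of 22 genes. Over all kept cells 22 were tested, and 1 rose and 0 fell in p21mTertCD over p21Het, beside 0.12% of genes, with 0 called in either other contrast. That gene was Cxcr3, the receptor of Cxcl9 and Cxcl10 on activated T cells, at 10.9, 9.07 and 12.6 CPM in p21Het and 26.5 and 28.0 in p21mTertCD (log2 fold change 1.35 ± 0.14 (SE), adjusted p = 0.0114). T cells were 12.6% to 15.7% of kept barcodes in those p21Het libraries and 34.8% and 25.9% in those of p21mTertCD, and the part of these shares in the Cxcr3 level was not tested. Of 7 other chemokine ligands, 2 could be tested in all kept cells and in T cells and 1 in blood endothelium, AT2 cells and fibroblasts, and none of these was called in edgeR's tests. The other 5 lineages had none of the 7 to test.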

How the data were processed

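The authors deposited raw UMI counts per gene and cell barcode for each of 11 libraries, made with Cell Ranger on mm10 per the submitters' processing notes. Neither a normalization nor the barcode filters given next are applied in those counts. The lowest barcode of a library had 500 or 501 UMIs, so barcodes with fewer UMIs were already absent. The members and gene lists were chosen with earlier results of these data known. A barcode was kept with 1000 to 30000 UMIs of which no more than 14% were mitochondrial. A kept barcode took 1 of 26 lineages when at least 3 of that lineage's 10 markers were detected and at least 2 more than of any other list (91.621% of kept barcodes), and 98.325% of these lay in a cluster of the same lineage (74 clusters, scanpy 1.11.5, leidenalg 0.10.2). Doublets were kept, and removing those that Scrublet ranked highest was an alternative, since its own thresholds marked as few as 0.997% in a library.

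Counts were summed per library and lineage and given as CPM (scaled to a total of 1000000 UMIs) for lineages with at least 20 cells in a library and at least 6 libraries, and lineages that seldom reached 20 cells were taken from 5 cells on, a choice made after the cell numbers were seen. Sums were tested in edgeR 4.0.16 (R 4.3.3, quasi-likelihood, TMM, filterByExpr, Benjamini-Hochberg adjustment over all genes tested), with SE taken as the log2 fold change over the square root of F. The genotype fit held the 3 groups other than WT, which has 1 library. On simulated counts with 200 genes changed by 2 on the log2 scale, 94% were recovered in the p21mTert minus p21Het comparison of all kept cells (17296 genes), with 10 false calls, and 98.5% in that of classical monocytes (8660 genes), with 17 false calls. The changed genes had mean counts above 20. Smaller changes and the contrasts with p21mTertCD were not simulated, so recovery there is not known. Alternatives were RLE size factors, no filter, DESeq2 1.42.0, doublets left out, a stricter gate, lineages from clusters, each library left out, the later set of 8 libraries alone, a term for the set (the first 3 libraries and the later 8, told apart by how the titles are written) and a block for the replicate number. Every member is given its UMIs and highest lineage, with the range where it has at least 100 UMIs. Called members are named, with statistics for up to 3 per lineage, and so are the 2 most abundant members of each lineage in the genotype contrasts and the member of smallest p over all kept cells. Receptor results within lineages are not reported here.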

Additional observations from a re-analysis of the deposited data

Results flagged for a closer look

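Only p21mTert, the largest group, was examined, with its 4 or 5 measured libraries for each ligand and cell set. Of 65 such sets, 8 held a library far from the rest. Chance marks about 5% of such sets when they are independent, but the same libraries recur here, so the sets are not independent. Among all kept cells, Ccl6 was 1118 CPM in p21mTert library 1, where the other 4 had 506.6 to 682.6. In the same library Cxcl9 of cDC1 was 212.3, where the others had 5.792 to 30.09.

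Library 4 of p21mTert was the highest of its group in 3 ligands over all kept cells, at 2.445 for Ccl19 (others 0.2575 to 0.7865), 5.245 for Cxcl5 (others 0.681 to 1.905) and 9.11 for Cx3cl1 (others 6.897 to 7.404). This library also had the most fibroblasts of the 5, 276 against 68 to 169. Library 5 was highest in both platelet ligands, at 169.5 for Pf4 (others 43.36 to 72.37) and 71.33 for Ppbp (others 3.708 to 7.71), and it held 61 platelets or megakaryocytes against 5 to 20. The part of these cell numbers was not tested. Ccl25 in AT1 cells was 5.468 in p21mTert library 3, where the other 3 measured libraries had 18.17 to 20.28.

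Ccl9 was picked by a search for ligands whose groups separated in opposite directions in different lineages. How many sets were searched is not given, so how often chance gives such a pattern is not known. In these libraries the order of p21mTert and p21mTertCD in Ccl9 differed between blood endothelium and neutrophils. In blood endothelium every p21mTert library lay above both p21mTertCD libraries (ratio of group means 2.746), and in neutrophils every p21mTert library lay below both. Both lineages held little Ccl9, with 0.502% of its UMIs in blood endothelium and 0.975% in neutrophils. Its mean in blood endothelium was 11.4 CPM, against 123.5 in all other assigned cells. The difference between the lineages was not tested.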

How the results depend on the processing

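Of 192 lineage counts of called members under the alternatives, 186 stayed within 1.5 times the main count. With lineages from clusters, adventitial fibroblasts had 3 called members, erythroid cells 1 and ILC2 1, and Ccl11 in adventitial fibroblasts was -9.492. With doublets left out, CD4 T cells had 2 and mesothelial cells 1, and in the later 8 libraries alone mesothelial cells had 1. The share of all genes called in these fits is not given, so the counts show only how far the main counts moved.

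Of 256 genotype counts, 224 stayed within 1.5 times. The share of all genes called is not given for the alternative fits here and below. Their counts of members therefore show how far the main counts moved and are not a result about the members. In p21mTertCD minus p21Het, all kept cells had 0 called members with RLE size factors, in the later libraries alone and with a term for the set, and classical monocytes had 0 in DESeq2, in the later libraries alone and with that term, and 2 with doublets left out or a stricter gate. DESeq2 called 2 in p21mTert minus p21mTertCD of all kept cells and 1 in p21mTertCD minus p21Het of T cells, and with doublets left out neutrophils had 1 in the latter contrast. With no filter on low counts, p21mTert minus p21Het gave 2 in blood endothelium, 2 in NK cells, 3 in fibroblasts, 7 in neutrophils, 1 in AT2 cells, 7 in interstitial macrophages and 7 in classical monocytes. There p21mTert minus p21mTertCD gave 4 in NK cells, 4 in fibroblasts, 4 in classical monocytes, 7 in neutrophils and 2 in interstitial macrophages, and p21mTertCD minus p21Het gave 2 in NK cells, 1 in T cells, 6 in neutrophils, 2 in fibroblasts, 4 in classical monocytes and 8 in interstitial macrophages. Its log2 fold changes of p21mTert minus p21Het were -0.02556 for Ccl6 in classical monocytes and 0.02379 for Ccl5 in NK cells, and in the later libraries alone Cxcl14 in fibroblasts was 0.05514. The cause was not tested.

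Deviations of same-numbered libraries from the means of the later libraries of their groups correlated at -0.2, -0.495, 0.138 and -0.141. The p21Het and p21mTertCD groups each had 2 later libraries, whose deviations mirror each other. These values therefore cannot show whether replicate numbers pair the libraries. The replicate block was fitted in the later 8 libraries alone. Some replicate numbers occur in 1 group only, so p21mTert minus p21Het rests there on the numbers that both groups share. With so many terms for so few libraries, little spread was left to test against. With this block, p21mTert minus p21Het gave 4 called members in classical monocytes, 2 in NK cells and 1 in blood endothelium, and Cxcl14 in fibroblasts was 0.1374. The main fit, which also held libraries of the first set, gave 1, 0 and 0 members there, beside 0.159%, 0% and 0% of genes. The share of genes under the block is not given, so these counts are not a result about the members.

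Leaving out each library in turn gave 0 to 2 called members for p21mTertCD minus p21Het in all kept cells, 0 to 1 in fibroblasts, classical monocytes, T cells and NK cells, 0 to 1 for p21mTert minus p21Het in classical monocytes, and for p21mTert minus p21mTertCD 0 to 1 in fibroblasts and neutrophils, 0 to 3 in T cells and 0 to 2 in NK cells. Log2 fold changes of p21mTert minus p21Het that changed sign ranged from -1.179 to 0.9365 for Ccl6 in blood endothelium, -0.08791 to 0.0684 for Cxcl15 in AT2 cells, -0.1422 to 0.05532 for Cxcl14 in fibroblasts, -0.07853 to 0.2681 for Cxcl2 and -0.06734 to 0.7152 for Pf4 in interstitial macrophages, -0.1142 to 0.116 for Ccl6 in classical monocytes, -0.7923 to 0.05638 for Cxcl2 and -0.0001415 to 0.3461 for Ccl6 in neutrophils, and -0.1925 to 0.3135 for Ccl5 in NK cells. Where a fit left 1 p21mTertCD library, that library was assumed to vary like the other groups. Members with few UMIs, such as Ccl19 and Ccl20, rest on few molecules in most lineages.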
